A study of Mus musculus with 18 samples.

Results

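The macrophage genes examined here are 10 genes that macrophages of the mouse embryo express: the growth factor receptor Csf1r, the signalling adaptors Tyrobp and Fcer1g, the complement chains C1qa, C1qb and C1qc, the mannose receptor Mrc1, the chemokine Pf4, the lysozyme Lyz2 and the chemokine receptor Cx3cr1. They were taken by symbol from a table of 34245 genes, and all 10 passed the filter for the test, 0.1 FPKM or more in 3 or more of the 9 embryos, which left 19397 genes. FPKM, fragments per kilobase of transcript scaled to the size of the library, is a level per gene length. RNA-seq was done on whole embryos of the FVB strain at embryonic day E11.5, with 1 library per embryo and 3 embryos per genotype. The control embryos were Dnmt3b+/+. The Dnmt3b-/- embryos carried a conventional knockout allele of the DNA methyltransferase Dnmt3b, derived from mice with a loxP-flanked gene, and the Dnmt3bCI/CI embryos carried a knock-in that replaces residues of the catalytic site, so that a catalytically inactive protein is made from the same locus. Both alleles are in the germ line, and offspring of different knock-in founders were not distinguished.

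Macrophages are the first white blood cells of the embryo. They arise from progenitors of the yolk sac and later of the liver, spread through the body before birth, and become microglia in the brain and tissue macrophages elsewhere. Signals through Csf1r keep them alive. They clear dying cells and debris, and for this they use scavenger receptors such as Mrc1 and opsonins such as C1q. A whole embryo contains few of them, so in bulk RNA fewer macrophages and less RNA of a gene per macrophage cannot be told apart.

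Dnmt3b, the targeted gene, was measured at 2.25, 1.62 and 2.04 FPKM in the Dnmt3b+/+ embryos, at 2.45, 3.12 and 3.33 FPKM in those labelled Dnmt3b-/-, and at 2.06, 1.98 and 2.32 FPKM in the Dnmt3bCI/CI embryos. The libraries labelled Dnmt3b-/- thus had no less of it, although a value for the whole gene does not show whether the deleted part is missing, and these embryos are called by their label. Totals of 38451729 to 49808777 reads lay behind the libraries. The macrophage genes had between 48 reads (Tyrobp) and 1026 reads (Csf1r) in a library, so each was counted in every embryo. 1 library stood apart: Dnmt3b+/+ embryo 2 had 0.103 FPKM of Alb and 0.119 FPKM of Afp, the main proteins secreted by the fetal liver, against 85.7 and 43.7 FPKM of Alb and 93.3 and 52 FPKM of Afp in the other Dnmt3b+/+ embryos. The counts of macrophage genes that changed against Dnmt3b+/+ are therefore also given without it.

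Macrophage identity is set in large part by the transcription factor PU.1, encoded by Spi1, which binds purine-rich ETS motifs with GAGGAA at their core, whereas genes of the platelet lineage also carry GATA motifs with AGATAA. RefSeq promoters (250 bases before to 50 after the start of transcription, GRCm38.p6) were matched for 7 of the 10 genes. They are shown for the receptors that fell in the embryos labelled Dnmt3b-/- (Mrc1 and Cx3cr1), for neighbouring complement genes (C1qb and C1qc) and for Pf4, 5′ to 3′ on the strand of the gene, with GAGGAA and AGATAA on either strand in capitals.
Mrc1, chr2:14229164-14229463, plus strand: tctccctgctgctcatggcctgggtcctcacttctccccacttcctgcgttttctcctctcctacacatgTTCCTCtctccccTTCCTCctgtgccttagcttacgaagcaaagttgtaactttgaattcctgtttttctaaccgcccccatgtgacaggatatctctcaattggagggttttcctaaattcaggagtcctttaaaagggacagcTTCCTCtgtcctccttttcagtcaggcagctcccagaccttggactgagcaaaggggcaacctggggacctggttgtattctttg
Cx3cr1, chr9:120068247-120068546, minus strand: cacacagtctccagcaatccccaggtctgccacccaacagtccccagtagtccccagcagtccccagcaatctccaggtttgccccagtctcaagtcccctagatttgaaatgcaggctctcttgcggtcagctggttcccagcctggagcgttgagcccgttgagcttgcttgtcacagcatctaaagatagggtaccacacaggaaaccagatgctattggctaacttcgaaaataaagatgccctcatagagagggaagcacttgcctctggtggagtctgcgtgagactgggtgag
C1qb, chr4:136886151-136886450, minus strand: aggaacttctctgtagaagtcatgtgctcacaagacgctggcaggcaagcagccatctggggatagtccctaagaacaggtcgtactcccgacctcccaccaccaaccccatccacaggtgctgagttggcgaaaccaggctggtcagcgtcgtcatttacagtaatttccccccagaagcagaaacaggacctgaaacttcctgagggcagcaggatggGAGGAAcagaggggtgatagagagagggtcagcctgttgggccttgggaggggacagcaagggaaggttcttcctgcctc
C1qc, chr4:136892865-136893164, minus strand: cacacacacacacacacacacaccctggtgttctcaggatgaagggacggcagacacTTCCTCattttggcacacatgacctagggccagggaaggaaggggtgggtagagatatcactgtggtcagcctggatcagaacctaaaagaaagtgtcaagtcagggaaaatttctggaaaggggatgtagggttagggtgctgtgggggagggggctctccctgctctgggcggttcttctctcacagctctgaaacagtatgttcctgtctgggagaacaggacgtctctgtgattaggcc
Pf4, chr5:90772185-90772484, plus strand: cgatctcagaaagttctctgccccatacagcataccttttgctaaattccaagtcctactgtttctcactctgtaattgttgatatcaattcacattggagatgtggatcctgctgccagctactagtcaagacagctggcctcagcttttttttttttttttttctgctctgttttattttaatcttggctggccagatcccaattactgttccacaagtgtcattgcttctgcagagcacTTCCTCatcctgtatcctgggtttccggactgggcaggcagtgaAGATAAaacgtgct

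GAGGAA was found in 4 of the 7 promoters, namely 3 times in Mrc1 and 1 time each in C1qb, C1qc and Pf4, and 28.3% of 32807 RefSeq promoters of the same length held it. AGATAA was found in Pf4 alone, 37 bases into the transcript, and 11.2% of all promoters held it. No match overlapped another, and Fcer1g, Lyz2 and Cx3cr1 had neither motif in this window. Dnmt3b methylates cytosines of CpG dinucleotides. The 7 promoters held from 1 CpG (Lyz2) to 7 (Fcer1g), with 3 each in C1qc, Mrc1 and Pf4, against a median of 7 over all promoters. Methylation of these promoters was not analysed here.

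Mrc1, Cx3cr1 and Tyrobp fell in the embryos labelled Dnmt3b-/- against Dnmt3b+/+, and for none of the 10 did the difference between Dnmt3bCI/CI and Dnmt3b+/+ pass the test. For 9 of the 10 genes and 29.7% of all genes, mean FPKM ran from Dnmt3bCI/CI as the highest through Dnmt3b+/+ to Dnmt3b-/- as labelled. The exception was C1qb, whose mean was lowest in Dnmt3b+/+ by less than its spread. Differences were tested on log2(FPKM + 0.1) with limma over all 9 embryos, and a fall or rise means an adjusted p under 0.05 (Benjamini-Hochberg over all 19397 genes). Against Dnmt3b+/+, these 3 of the 10 genes fell in the embryos labelled Dnmt3b-/-, none rose, and the median difference of the 10 was -0.28 on the log2 scale against -0.07 for all genes. Falls at this threshold were seen for 16.4% of all genes, and rises for 9.41%. The split over all genes, 3175 lower and 1826 higher, depended on the scaling. After median-of-ratios scaling it became 2548 lower and 2567 higher, and the 3 genes also fell. After quantile normalization it became 2044 lower and 2236 higher, and of the 10 only Mrc1 fell. Without rescaling, none of the 10 fell at least 2-fold, as 3.38% of all genes did, and 5 were lower at an unadjusted p under 0.05. The share of all genes at an unadjusted p under 0.05 is not given here. Counts at that threshold, also those below, therefore cannot be set against it. A second tool, limma-voom on the reads, found 4 of the 10 lower (Csf1r in addition) and none of them by 2-fold, with 3187 of 19290 genes lower.

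**Figure D1:**
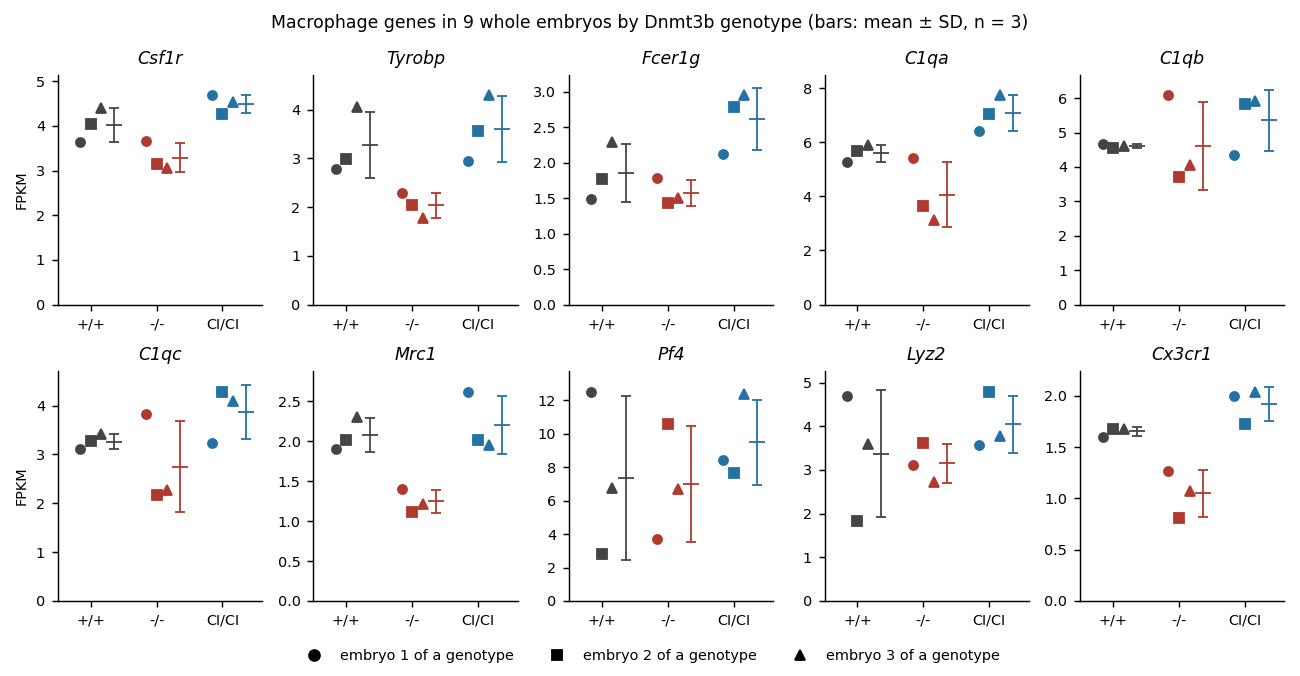
FPKM (linear axis from 0) of the 10 macrophage genes in each embryo by Dnmt3b genotype, where symbols stand for the 3 embryos of a genotype and bars for the mean ± SD (n = 3). Mrc1, Cx3cr1 and Tyrobp were lower in each of the 3 embryos labelled -/- than in each +/+ embryo, whereas Pf4 and Lyz2 spread most within +/+, with embryo 2 lowest at 2.78 and 1.83 FPKM.

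Mrc1, the mannose receptor (CD206), takes up glycoproteins and is an early mark of tissue macrophages. Its gene lies on chromosome 2 (14229392 to 14332057, plus strand, GENCODE M21 on GRCm38). It was measured at 1.9, 2.02 and 2.31 FPKM in Dnmt3b+/+, at 1.4, 1.12 and 1.22 FPKM in embryos labelled Dnmt3b-/- and at 2.62, 2.02 and 1.96 FPKM in Dnmt3bCI/CI. Every embryo labelled Dnmt3b-/- was below every other embryo, and Dnmt3b+/+ and Dnmt3bCI/CI overlapped. The level was 1.62-fold lower than in Dnmt3b+/+ (log2 difference -0.69, SE 0.14, limma adjusted p = 0.009). The gene contains the microRNA gene Mir511 in an intron, with which it shares no exonic base.

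Cx3cr1, the receptor of fractalkine, is expressed by macrophage progenitors as they enter tissues and is kept by microglia. Its levels were 1.6, 1.68 and 1.68 FPKM in Dnmt3b+/+, 1.27, 0.81 and 1.07 FPKM in embryos labelled Dnmt3b-/- and 2, 1.73 and 2.04 FPKM in Dnmt3bCI/CI. The Dnmt3b+/+ values were nearly identical, and the 3 genotypes did not overlap at all. The fall against Dnmt3b+/+ was 1.55-fold (log2 difference -0.63, SE 0.15, limma adjusted p = 0.0163). Of the exons of Cx3cr1, 78 bases are shared with the antisense gene Gm33858, and since the strand setting of the counting is not stated, reads there cannot be told apart.

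Tyrobp (DAP12) is a membrane adaptor whose ITAM motif passes signals of TREM2 and other receptors to the kinase Syk. It was measured at 2.79, 2.98 and 4.05 FPKM in Dnmt3b+/+, at 2.29, 2.05 and 1.77 FPKM in embryos labelled Dnmt3b-/- and at 2.94, 3.57 and 4.29 FPKM in Dnmt3bCI/CI. Both other genotypes lay above the embryos labelled Dnmt3b-/- without overlap. The fall was 1.57-fold (log2 difference -0.65, SE 0.18, limma adjusted p = 0.0295). It was the least secure of the 3, with 48 to 110 reads per library. Without Dnmt3b+/+ embryo 3 its adjusted p was 0.087, and without embryo 2 or 3 labelled Dnmt3b-/- it was 0.0797 or 0.0951.

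In each of these 3 genes all embryos labelled Dnmt3b-/- were below all Dnmt3b+/+ embryos, a separation that 23.8% of all genes showed in this direction. The number of genes that fell depended on single embryos. Without Dnmt3b+/+ embryo 2, the library with little liver RNA, the same 3 genes fell, as did 11.9% of all genes. Without Dnmt3b+/+ embryo 3 only Mrc1 of the 10 fell, with falls in 9.14% of all genes. Mrc1 and Cx3cr1 fell without embryo 2 or without embryo 3 labelled Dnmt3b-/-, where 8.21% and 8.69% of all genes did. Without embryo 1 labelled Dnmt3b-/- 6 of the 10 fell (Csf1r, C1qa and C1qc in addition), as did 23.4% of all genes. Mrc1 was lower at an adjusted p under 0.05 in each of these fits.

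Csf1r, the receptor tyrosine kinase for CSF1 and IL-34 on which macrophages depend, lies on chromosome 18. Its levels were 3.63, 4.04 and 4.39 FPKM in Dnmt3b+/+, 3.65, 3.15 and 3.05 FPKM in embryos labelled Dnmt3b-/- and 4.68, 4.27 and 4.53 FPKM in Dnmt3bCI/CI. Embryo 1 labelled Dnmt3b-/- reached the lowest Dnmt3b+/+ embryo, and the difference of -0.28 on the log2 scale (95% confidence interval -0.50 to -0.07) did not pass the test (limma adjusted p = 0.057). It did pass without that embryo, at -0.36 (limma adjusted p = 0.0176). Of its exons, 873 bases are shared with Hmgxb3 on the opposite strand, where reads of both genes cannot be told apart, and the deposited values correspond to whole reads at a length of 4885 bases in place of the annotated 5774.

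The C1q genes lie side by side on chromosome 4 in the order C1qb (136880129 to 136886187), C1qc (136889804 to 136893065) and C1qa (136895917 to 136898803), all on the minus strand. Their products are the chains of C1q, the recognition part of the classical complement pathway, which assembles from equal numbers of A, B and C chains and which tissue macrophages secrete. C1qa was measured at 5.26, 5.66 and 5.88 FPKM in Dnmt3b+/+, at 5.42, 3.66 and 3.11 FPKM in embryos labelled Dnmt3b-/- and at 6.4, 7.06 and 7.73 FPKM in Dnmt3bCI/CI. C1qb was measured at 4.67, 4.56 and 4.62 FPKM, at 6.08, 3.72 and 4.06 FPKM, and at 4.34, 5.82 and 5.93 FPKM in the same order. C1qc was measured at 3.1, 3.28 and 3.41 FPKM, at 3.82, 2.16 and 2.27 FPKM, and at 3.24, 4.28 and 4.09 FPKM.

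The 3 chains were close to constant among Dnmt3b+/+ embryos (the standard deviation was 1.25% to 5.69% of the mean) and uneven among the embryos labelled Dnmt3b-/- (27.7% to 33.7%). Embryo 1 labelled Dnmt3b-/- had the highest C1qa, C1qb and C1qc of its genotype, and for C1qb and C1qc it exceeded every Dnmt3b+/+ embryo, while embryos 2 and 3 were below all of them. No chain passed the test against Dnmt3b+/+, with log2 differences of -0.49 for C1qa (limma adjusted p = 0.0726), -0.03 for C1qb (adjusted p = 0.911) and -0.28 for C1qc (adjusted p = 0.327). Without embryo 1 labelled Dnmt3b-/- the differences were -0.71 for C1qa (adjusted p = 0.00226) and -0.54 for C1qc (adjusted p = 0.0114), and both passed.

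Fcer1g, the common gamma chain of the Fc receptors and, like Tyrobp, an ITAM adaptor, was measured at 1.49, 1.77 and 2.3 FPKM in Dnmt3b+/+, at 1.78, 1.43 and 1.5 FPKM in embryos labelled Dnmt3b-/- and at 2.12, 2.78 and 2.95 FPKM in Dnmt3bCI/CI. The first 2 groups overlapped, with a log2 difference of -0.21 (95% confidence interval -0.62 to 0.19, limma adjusted p = 0.405). Tyrobp and Fcer1g thus ended on different sides of the threshold, but the difference between their changes was not tested.

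Pf4 and Lyz2 spread more within Dnmt3b+/+ than the other 8 genes. Pf4, a chemokine stored in platelet granules and also made by embryonic macrophages, was measured at 12.5, 2.78 and 6.75 FPKM in Dnmt3b+/+, at 3.69, 10.6 and 6.67 FPKM in embryos labelled Dnmt3b-/- and at 8.4, 7.66 and 12.4 FPKM in Dnmt3bCI/CI. Lyz2, the lysozyme of macrophages, monocytes and granulocytes, was measured at 4.7, 1.83 and 3.6 FPKM, at 3.12, 3.61 and 2.72 FPKM, and at 3.57, 4.79 and 3.79 FPKM in the same order. All genotypes overlapped for both genes, and the log2 differences against Dnmt3b+/+ were 0.05 for Pf4 (95% confidence interval -1.17 to 1.27) and -0.01 for Lyz2 (-0.68 to 0.66). Within Dnmt3b+/+ alone, the highest Pf4 value was 4.47 times the lowest and the highest Lyz2 value 2.57 times the lowest, against 1.03 to 1.55 times for the other 8 genes.

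Dnmt3b+/+ embryo 2 was lowest in both, but Pf4 also differed between the other Dnmt3b+/+ embryos (12.5 and 6.75 FPKM). Within the embryos labelled Dnmt3b-/- the highest Pf4 value was 2.87 times the lowest. The mean of the other Dnmt3b+/+ embryos was 3.45 times the Pf4 level of Dnmt3b+/+ embryo 2 and 2.27 times its Lyz2 level. For the other 8 genes the same ratio to this embryo was between 0.972 and 1.15. Ppbp, the other abundant platelet chemokine, had 0.315 FPKM in this embryo against 7.28 and 2.85 FPKM in the other Dnmt3b+/+ embryos, and Gp9, a subunit of the platelet receptor for von Willebrand factor, had 0.16 against 1.7 and 0.579 FPKM. Mpo, the myeloperoxidase of granulocyte precursors, had 0.188 against 3.96 and 2.23 FPKM. In the embryos labelled Dnmt3b-/-, Ppbp had 1.11, 3.89 and 3.07 FPKM, so that embryo 1 was lowest in both Pf4 and Ppbp and embryo 2 was highest in both. Without Dnmt3b+/+ embryo 2 the log2 differences of the embryos labelled Dnmt3b-/- became -0.52 for Pf4 (limma adjusted p = 0.441) and -0.38 for Lyz2, and neither gene passed.

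**Figure D2:**
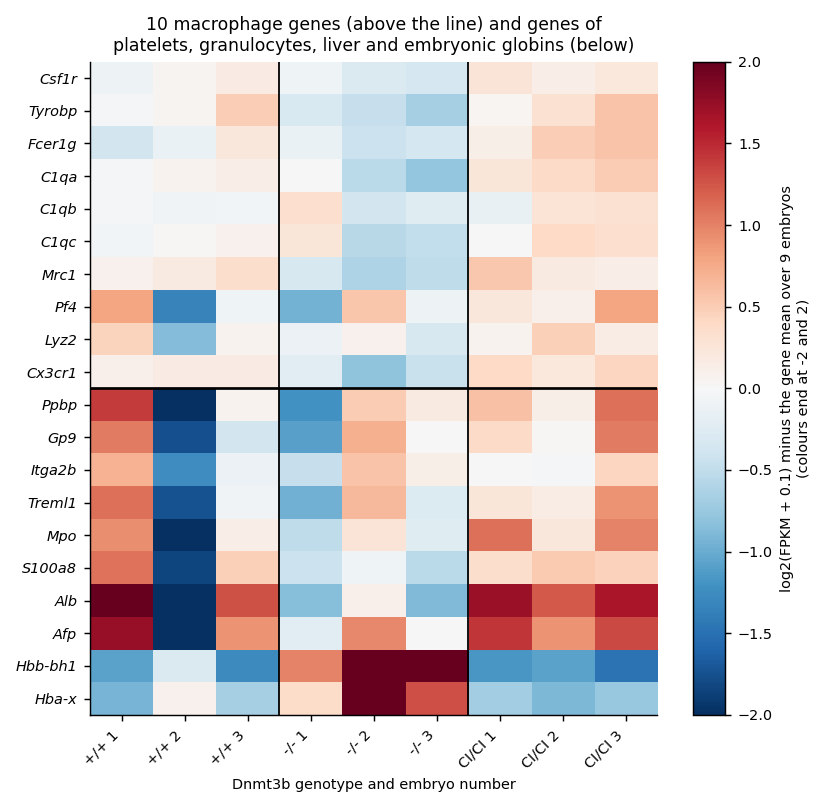
Level of each gene in each embryo, as log2(FPKM + 0.1) minus the gene's mean over the 9 embryos (red higher, blue lower, colours end at -2 and 2), for the 10 macrophage genes above the line and genes of platelets (Ppbp, Gp9, Itga2b, Treml1), granulocytes (Mpo, S100a8), liver (Alb, Afp) and embryonic globins (Hbb-bh1, Hba-x) below. Pf4 and Lyz2 were low in Dnmt3b+/+ embryo 2 with the platelet, granulocyte and liver genes, while the other 8 macrophage genes were not.

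Catalytically inactive Dnmt3b was compared with the wild-type protein next. None of the 10 genes changed between Dnmt3bCI/CI and Dnmt3b+/+ embryos by limma or by limma-voom, and 1 (Fcer1g, limma adjusted p = 0.889) was higher at an unadjusted p under 0.05. This was also so without Dnmt3b+/+ embryo 2. Rises passed the test for 0.129% of all genes. The fitted differences were positive for all 10 genes, with a median of 0.22 on the log2 scale against 0.02 for all genes, and ranged from 0.07 for Mrc1 (95% confidence interval -0.24 to 0.38) to 0.58 for Pf4 (-0.64 to 1.80). In C1qa and Cx3cr1 every Dnmt3bCI/CI embryo was above every Dnmt3b+/+ embryo, as in 7.53% of all genes. The intervals of Csf1r (-0.05 to 0.37) and Cx3cr1 (-0.13 to 0.54) leave room for a rise of up to that size.

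Set against Dnmt3bCI/CI embryos, those labelled Dnmt3b-/- were lower in 6 of the 10 genes, and all 10 differences were negative. Falls at this threshold were seen for 18.2% of all genes. The genes were Cx3cr1 (log2 difference -0.83, limma adjusted p = 0.00503), Mrc1 (-0.76, adjusted p = 0.00528), Csf1r (-0.44, adjusted p = 0.0107), C1qa (-0.82, adjusted p = 0.0114), Tyrobp (-0.78, adjusted p = 0.0134) and Fcer1g (-0.69, adjusted p = 0.0215). The median over the 10 genes was -0.61 against -0.08 for all genes. In these 6 genes the genotypes did not overlap, a separation seen in 29.5% of all genes, and none of them fell 2-fold, as 4.32% of all genes did.

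C1qb (log2 difference -0.23), C1qc (-0.52), Pf4 (-0.53) and Lyz2 (-0.35) did not pass this test. The count was 4 to 8 of 10 when single embryos were left out, with 8 reached without embryo 1 labelled Dnmt3b-/-, when C1qb and C1qc also fell, C1qa fell at least 2-fold and 24.8% of all genes fell. Csf1r, C1qa, Mrc1 and Cx3cr1 were lower in each of the fits with 1 embryo left out. The comparisons with Dnmt3b+/+ and with Dnmt3bCI/CI share the embryos labelled Dnmt3b-/-, so their results are not independent.

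**Figure D3:**
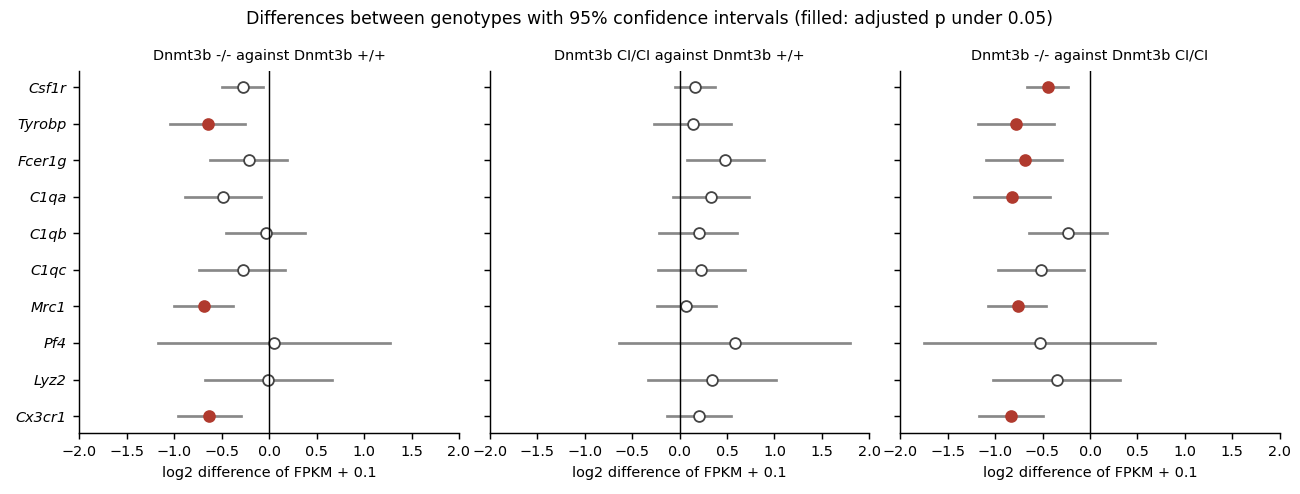
Differences between genotypes for the 10 macrophage genes on the log2(FPKM + 0.1) scale (points) with 95% confidence intervals (lines), in 3 comparisons from 1 limma model of 9 embryos. Filled points mark an adjusted p under 0.05, which 3 genes reached against +/+, none between CI/CI and +/+, and 6 between -/- and CI/CI, while the intervals of Pf4 were the widest.

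Ratios between the genes within an embryo show which of them moved apart, and since both genes are measured in the same library they do not depend on its total. Relative to Csf1r, Mrc1 had a ratio of 0.524, 0.5 and 0.525 in Dnmt3b+/+, of 0.384, 0.355 and 0.399 in the embryos labelled Dnmt3b-/-, and of 0.559, 0.474 and 0.432 in Dnmt3bCI/CI. The ratio was lower in every embryo labelled Dnmt3b-/- than in any other, by 1.36-fold against Dnmt3b+/+ (exact two-sided permutation test, p = 0.1, the smallest that 3 embryos against 3 can give). Cx3cr1 relative to Csf1r was 0.441, 0.417 and 0.381 in Dnmt3b+/+, 0.347, 0.257 and 0.35 in the embryos labelled Dnmt3b-/-, and 0.427, 0.406 and 0.451 in Dnmt3bCI/CI. Embryos labelled Dnmt3b-/- had a 1.31-fold lower ratio than Dnmt3b+/+ embryos, without overlap (exact permutation p = 0.1). Tyrobp relative to Csf1r was 0.768, 0.738 and 0.922 in Dnmt3b+/+ and 0.627, 0.649 and 0.581 in embryos labelled Dnmt3b-/-, 1.3-fold lower without overlap (exact permutation p = 0.1), but these overlapped with 0.628, 0.835 and 0.947 in Dnmt3bCI/CI. Of all other tested genes, 9.53% had a lower ratio to Csf1r without overlap between these embryos and Dnmt3b+/+.

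The ratios of the other 6 genes to Csf1r overlapped between these genotypes. With Ptprc, the pan-leukocyte phosphatase CD45, or with the mean of a pan-leukocyte list in place of Csf1r, no gene was lower without overlap. Ptprc itself was too low for the test, at 0.0424 to 0.0924 FPKM.

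The proportions of the C1q chains were looked at after their values were seen, so they are a description with no test. C1qa relative to C1qb was 1.12, 1.24 and 1.27 in Dnmt3b+/+, 0.892, 0.985 and 0.766 in the embryos labelled Dnmt3b-/-, and 1.48, 1.21 and 1.3 in Dnmt3bCI/CI. All embryos labelled Dnmt3b-/- were below 1 and all others above it, a 1.38-fold lower ratio than in Dnmt3b+/+. C1qc relative to C1qb was 0.663, 0.719 and 0.738 in Dnmt3b+/+ and 0.627, 0.58 and 0.56 in the embryos labelled Dnmt3b-/-, again without overlap (1.2-fold), whereas C1qa relative to C1qc overlapped. Of all other tested genes, 17.2% had a lower ratio to C1qb without overlap in this comparison. Embryo 1 labelled Dnmt3b-/-, which had the most C1q of its genotype, was on the same side as embryos 2 and 3 in both ratios to C1qb.

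**Figure D4:**
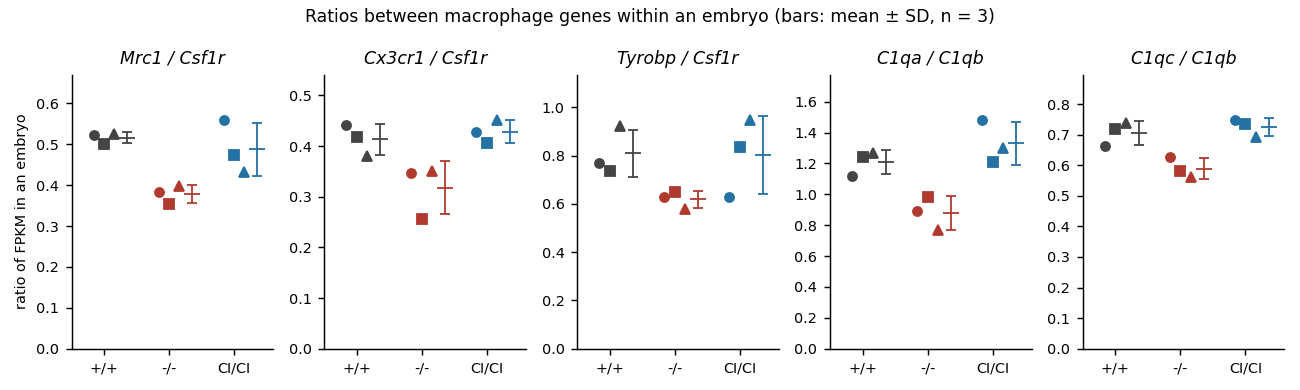
Ratio of FPKM between macrophage genes within each embryo (linear axis from 0) by Dnmt3b genotype, where symbols stand for the 3 embryos of a genotype and bars for the mean ± SD (n = 3). The 5 ratios shown are those of 14 computed in which each embryo labelled -/- lay below each +/+ embryo, the other 9 having overlapped, and C1qa relative to C1qb was under 1 only in embryos labelled -/-.

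Other genes of macrophages were taken from lists, whose counts stand against falls in 16.4% and rises in 9.41% of all genes. Of 16 defining macrophage markers 15 could be tested, and in the embryos labelled Dnmt3b-/- 8 fell and 1 rose against Dnmt3b+/+, with a median log2 difference of -0.44 against -0.07 for all genes. Among them, the lysosomal protease Ctss fell by 0.86 on the log2 scale, the pore-forming Mpeg1 by 0.84, the F4/80 antigen Adgre1 by 0.61 and Aif1 (Iba1) by 0.72 (limma adjusted p = 0.00538, 0.0111, 0.0165 and 0.0235). Mpeg1 illustrates the pattern, with 1.51, 1.53 and 1.52 FPKM in Dnmt3b+/+ against 1.14, 0.635 and 0.717 FPKM. Cd68, a lysosomal glycoprotein, rose by 0.27 (adjusted p = 0.0467). The summed level of the 16 genes was 22.1 to 24.5 FPKM in Dnmt3b+/+, 14.3 to 19.4 FPKM in the embryos labelled Dnmt3b-/- and 26.1 to 28 FPKM in Dnmt3bCI/CI, and none was at the floor of detection in all embryos. Without Dnmt3b+/+ embryo 2, 4 fell and 1 rose (11.9% and 5.98% of all genes did), and against Dnmt3bCI/CI 11 fell and none rose, where 18.2% of all genes fell.

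Of 14 markers of fetal macrophage subtypes and microglia, 9 could be tested and 4 fell. F13a1, the coagulation factor XIII chain of fetal tissue macrophages, fell 2-fold or more, with 1.29, 1.39 and 1.33 FPKM in Dnmt3b+/+ against 0.592, 0.555 and 0.688 FPKM (log2 difference -1.02, limma adjusted p = 0.000736). Olfml3, P2ry12 and Lyve1 fell by 0.68, 0.92 and 0.78, although Olfml3 and Lyve1 are also made by mesenchyme and endothelium. P2ry12 was near the limit of the test. It had 0.246, 0.402 and 0.2 FPKM in Dnmt3b+/+ and 0.0886, 0.12 and 0.0872 FPKM (9, 13 and 9 reads) in embryos labelled Dnmt3b-/-. The microglia markers Sall1 and Tmem119, which other embryonic tissues also express, had log2 differences of 0.26 and 0.20 that did not pass, and Sall1 rose by 0.41 against Dnmt3bCI/CI (limma adjusted p = 0.00981). The summed level of the list overlapped, at 28.3 to 31.8 FPKM in Dnmt3b+/+ and 27.5 to 32.7 FPKM in the embryos labelled Dnmt3b-/-. Cd163 and Vsig4, receptors of mature resident macrophages, had at most 3 reads in every embryo.

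Upstream of the 10 genes, the list of CSF1 receptor ligands and myeloid transcription factors had 14 genes, of which 7 fell and 1 rose (4 and 1 without Dnmt3b+/+ embryo 2). Csf1, a ligand of Csf1r, was measured at 1.73, 1.8 and 1.81 FPKM in Dnmt3b+/+ and at 1.53, 1.16 and 1.01 FPKM in the embryos labelled Dnmt3b-/- (log2 difference -0.52, limma adjusted p = 0.0282). Il34, the other ligand, was near the limit of the test at 0.115 and 0.0579 FPKM on average (log2 difference -0.43, adjusted p = 0.122). Among the transcription factors Maf, Runx1, Zeb2 and Klf4 fell by 0.52 to 0.89, and Id3 rose by 0.52. All of these are expressed in many other tissues of an embryo. Spi1 and Irf8, which are largely restricted to blood cells, did not pass against Dnmt3b+/+, with log2 differences of -0.17 and 0.02. Against Dnmt3bCI/CI, Spi1 fell by 0.61 without overlap (limma adjusted p = 0.0432), and Irf8 differed by -0.05 and did not pass.

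Around the ITAM adaptors, 14 of 20 partner and signalling genes could be tested. The inhibitory receptor Sirpa fell by 0.33 on the log2 scale and the kinase Syk rose by 0.6 (limma adjusted p = 0.0243, a rise that did not pass without Dnmt3b+/+ embryo 2), while Trem2, the main partner of Tyrobp in tissue macrophages, had a difference of -0.17 (adjusted p = 0.511). Of 14 tested complement genes beside C1q, 7 fell and 1 rose. C1ra, the protease that C1q carries, fell by 0.6 to an average of 0.0579 FPKM, and C1s1, its substrate, had a difference of -0.54 (adjusted p = 0.331). Calr, a chaperone that also binds C1q, rose by 0.23.

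Of 19 tested efferocytosis and scavenger receptor genes 3 fell, among them the receptor tyrosine kinase Axl by 0.59, and none rose, a share of falls close to the 16.4% of all genes. Of 14 tested lysosome genes 4 fell (Ctss, Lgmn, Ctsz and Grn) and 1 rose (Cd68), while Lyz1, the intestinal and near-identical copy of Lyz2 whose reads could be counted under either gene, had at most 3 reads in every embryo. None of 12 tested chemokine genes passed by limma or limma-voom. At an unadjusted p under 0.05, 1 was higher and 2 lower, with no share of all genes to set this against. The ligand of Cx3cr1, Cx3cl1, had a log2 difference of -0.42 (adjusted p = 0.119) and Ppbp one of 0.25. Of 14 tested pan-leukocyte genes 1 fell (Laptm5, by 0.32), with a median difference of -0.22.

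Markers of other cells that could share these transcripts were examined in the same way. In the embryos labelled Dnmt3b-/- 3 of 5 tested mast cell markers fell, among them Cpa3 with 0.325, 0.225 and 0.37 FPKM in Dnmt3b+/+ against 0.0149, 0.062 and 0.0146 FPKM, which stand for 0, 4 and 0 reads. Among monocyte markers 2 of 4 tested fell (Fn1 and Cd44, which many tissues express), and the blood monocyte genes Ly6c2 and Ccr2 were too low to test, below 0.1 FPKM in every embryo. None of 11 granulocyte markers and none of 3 tested lymphoid markers passed by limma or limma-voom (0 and 1 at an unadjusted p under 0.05), and 1 of 13 platelet markers fell (Thbs1). Among 7 tested progenitor markers Kit and Hlf fell, and among 12 endothelial markers Erg did.

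The summed level of 11 liver markers was 37.9 to 312 FPKM in Dnmt3b+/+, 66.1 to 130 FPKM in the embryos labelled Dnmt3b-/- and 192 to 225 FPKM in Dnmt3bCI/CI. Of these 1 fell (Ttr), and 7 fell when Dnmt3b+/+ embryo 2 was left out. In that fit 5 of the 11 granulocyte markers and 11.9% of all genes also fell. Unlike Alb and Afp, Ttr was highest of all embryos in Dnmt3b+/+ embryo 2, at 35.5 FPKM, and made up most of its liver sum. Among 12 erythroid genes the embryonic globins Hbb-bh1 and Hba-x rose, Hbb-bh1 from 26.9, 46.1 and 23.3 FPKM to 113, 501 and 265 FPKM (limma adjusted p = 0.00418). When Dnmt3b+/+ embryo 2 was left out, 2 erythroid genes rose and 2 fell (5.98% and 11.9% of all genes did). Hbb-bh1 and Hba-x thus moved with genotype alongside the 3 macrophage genes, and their part in the falls was not tested. The liver sums of the embryos labelled Dnmt3b-/- lay within the range of Dnmt3b+/+ through Dnmt3b+/+ embryo 2 alone (37.9 FPKM, mostly Ttr). They were below the 173 and 312 FPKM of the other Dnmt3b+/+ embryos. The part of the liver values in the falls was not tested either.

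Finally, genes outside the lists were ranked by likeness to the 10 macrophage genes, measured as the Pearson correlation of log2(FPKM + 0.1) with the mean z-score of the 10 over the 9 embryos. Among 14732 tested genes of at least 0.5 FPKM on average, the 10 most alike were Gm28626, Ccny, Rab43, Lrrc3, Tmem204, Ppp1r3d, Pxn, Mfap4, Tspan9 and St3gal1, with correlations of 0.962 to 0.99. None of them was on a macrophage list. The 9 points share their genotypes, so any gene lowest in the embryos labelled Dnmt3b-/- and highest in Dnmt3bCI/CI ranks high.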

How the data were processed

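The authors trimmed paired-end reads, aligned them with STAR to mm10, kept alignments with a mapping quality of at least 50, quantified genes with SeqMonk and deposited 1 table of FPKM for 9 RNA libraries. The annotation release and strand setting are not stated. 1 row without a gene name was left out. A gene without reads carries a value worth 0.9 reads, and reads and totals were worked back from this with GENCODE M21 exon lengths (99.4% of genes). Genes at 0.1 FPKM or more in 3 or more of the 9 embryos were tested with limma 3.58.1 (R 4.3.3) on log2(FPKM + 0.1), with 3 genotypes in 1 model, a variance trend and Benjamini-Hochberg adjustment. This pseudocount understates changes of low genes. The model was tested on simulated data with planted log2 changes of 2, of which it called 200 of 200. Changes as small as those of the macrophage genes were not simulated. Embryos are independent animals. Ratios used exact permutation (scipy 1.17.1). Named genes were the 10 genes, up to 4 genes per list by smallest adjusted p with ligands, partners and regulators, and the 10 most alike. The genes and lists were chosen with earlier results of these data known. Alternatives were other pseudocounts, filters, scalings, sample sets, a block, single embryos left out and, added after the data were seen, limma-voom. Bisulfite libraries and lymphomas were not analysed here. The values of some list genes are not reported here.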

Additional observations from a re-analysis of the deposited data

How the results depend on the processing

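For the embryos labelled Dnmt3b-/- against Dnmt3b+/+, 863 genes changed at least 2-fold, 193 with a pseudocount of 1 FPKM, 484 with a filter of 1 FPKM and 614 to 1427 with single embryos left out. After quantile normalization 272 of them were higher and 392 lower, against 208 and 655. Against Dnmt3bCI/CI the count of 1051 became 242, 597 and 751 to 1604 in the same order. Between Dnmt3bCI/CI and Dnmt3b+/+ the count of 25 became 8 with a pseudocount of 1 FPKM and 18 to 26 with single embryos left out. Fewer genes entered the stricter filter, and a larger pseudocount shrinks the folds of low genes.

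Of the macrophage genes, 3 fell against Dnmt3b+/+, 1 (Mrc1) after quantile normalization, and 1 to 6 with single embryos left out, while falls over all 19397 genes numbered 3175, 2044 and 1593 to 4544. Against Dnmt3bCI/CI it was 4 to 8 with single embryos left out (1965 to 4816 of all genes), and 0 to 1 by at least 2-fold. In 3 genes the ratio to Csf1r was lower without overlap, as in 9.53% of all other tested genes. The count was 0 with Ptprc or the pan-leukocyte mean as the reference, and 3 to 5 with single embryos left out. Shares of all genes under these alternatives are not given. The deviations of embryos that bear the same number had correlations of -0.34 to 0.215, and those of different numbers -0.269 to 0.33. Deviations from a mean of 3 embryos are tied to each other. These values therefore cannot show whether embryos with the same number share anything else. With a replicate block 2 macrophage genes and 1954 of all genes fell against Dnmt3b+/+. Tyrobp missed the threshold at the same log2 difference of -0.65 (limma adjusted p = 0.0575). Without the filter Tyrobp also missed it (limma adjusted p = 0.0606), with 2354 of 34244 genes lower.

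The sign of some differences turned. Against Dnmt3b+/+ the log2 difference of C1qb in the embryos labelled Dnmt3b-/- was 0.03 after median-of-ratios scaling, 0.05 after quantile normalization and -0.24 to 0.10 with single embryos left out. That of Lyz2 was 0.06, 0.10 and 0.04 under these scalings and limma-voom, and -0.38 to 0.27 with single embryos left out, and that of Pf4 was -0.52 to 0.55. For Dnmt3bCI/CI, leaving out single embryos gave -0.05 to 0.15 for Mrc1 and -0.03 to 0.62 for Lyz2 (0.34 with all embryos), the lowest without Dnmt3b+/+ embryo 2. The cause was not tested. Of the differences of single macrophage genes under the alternatives, 534 kept their direction and their side of the threshold, 14 turned, 14 lost and 8 gained significance. Filters, the variance trend, the block and embryos of a genotype outside the comparison cannot change a log2 difference. In those fits the direction was fixed in advance, so the count of 534 does not measure how stable the directions are.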
